A study of Danio rerio with 14 samples.

Results

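Cytochrome P450 genes were followed in zebrafish liver across 14 whole-transcriptome arrays. The genes were chosen by name: every annotated symbol starting with cyp and a digit was taken, except cyp51, which belongs to cholesterol synthesis. This gave 84 of the 21125 genes tested, in 16 families, the cyp2 family holding 39 of them. Adult fish of 4 genotypes were put on 1 of 3 feeding regimes at an age of 3 months and kept on it for 8 weeks. All fish are labelled with strain AB, and 1 genotype is wild type (WT). The other fish expressed HBx, a hepatitis B virus protein, the kinase Src, or both, from the hepatocyte promoter fabp10a. All 3 transgenic lines also carried the p53 mutation, so that a difference from WT cannot be assigned to the transgene or to p53, and no p53 mutant without a transgene was included. The single transgene lines are named HBx(p53-) and Src(p53-), and the line with both is named HBx,Src(p53-). Normal diet fish (NOR, 6 arrays) received 0.5 mL of Artemia 1 time a day and overfed fish (DIO, 5 arrays) 2 mL 3 times a day, while high fat fish (FAT, 3 arrays) received the normal Artemia and 0.22 g of high fat food per meal. WT and HBx,Src(p53-) had 4 arrays each and HBx(p53-) and Src(p53-) 3 each. No high fat array of HBx,Src(p53-) was among them, and the sex of the fish was not given in the sources used here.

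P450 enzymes are haem proteins that insert an oxygen atom into their substrate. Most sit in the endoplasmic reticulum and draw electrons from NADPH through a reductase, and a smaller group in mitochondria draws them through ferredoxin. In vertebrates the cyp1, cyp2 and cyp3 families oxidize foreign compounds as well as steroids and fatty acids, and the cyp4 family oxidizes fatty acids. The cyp7, cyp8, cyp27, cyp39 and cyp46 families act on cholesterol, oxysterols and bile acid precursors, cyp11, cyp17, cyp19 and cyp21 make steroid hormones, cyp26 clears retinoic acid, and cyp2r1, cyp27b1 and cyp24a1 activate and inactivate vitamin D. The liver is the main site of foreign compound oxidation and the place where bile acids are made.

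Levels are log2 signals, for which the array medians lay between 2.1 and 2.23. The hepatocyte marker list averaged 11.54 to 12.29 over all arrays, so the labelled tissue, liver, was borne out by its defining genes. A signal depends on how well a probe set binds as well as on the RNA, so the order of signals between genes is not an order of abundance, and in tissue RNA fewer expressing cells and less RNA per cell cannot be told apart. Probes of close relatives can also share RNA, and 28 of the 84 genes had several probe sets, of which the brightest was used.

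The heat map of all P450 signals shows a small bright group, a middle group and a dim group. Of the 84 genes, 10 had a mean signal above 8 (11.9%, against 4.7% of all genes) and 34 a mean under 3 (40.5%, against 48.8%). The bright group held cyp2ad2 (mean 11.16), cyp1a (10.43), the aryl hydrocarbon receptor target, cyp4t8 (9.52), cyp24a1 (9.35), cyp2y3 (9.23), cyp4v2b (9.02), cyp4v2a (8.89), cyp2u1 (8.64), cyp46a1.4 (8.16) and cyp2k19 (8.05). Next in signal were cyp2n13 (7.91) and cyp2k6 (7.71). Of the 4 cyp4 genes 3 were in the bright group and the fourth, cyp4f3, was dim at 2.62.

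**Figure D1:**
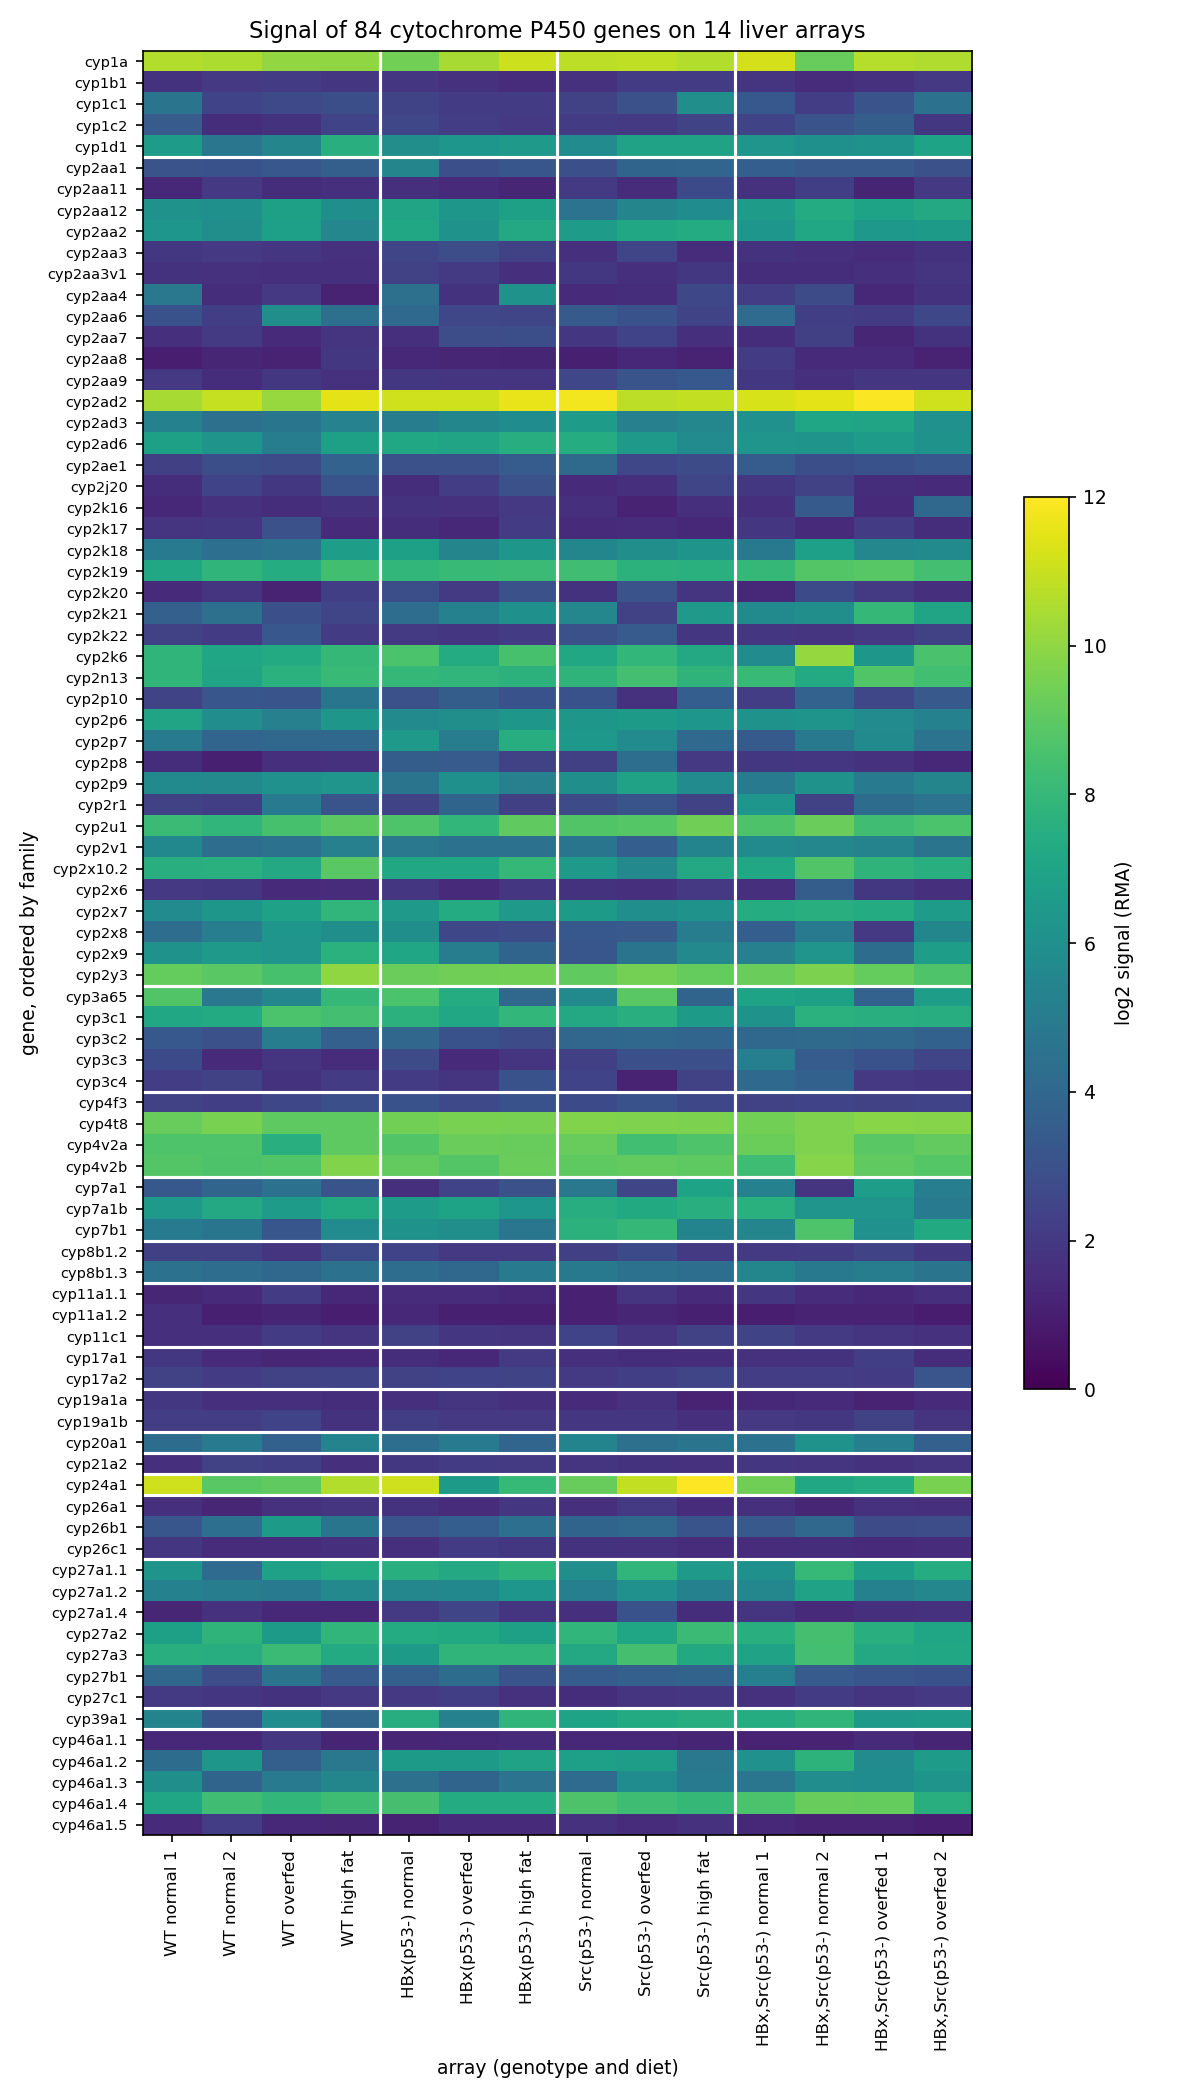
Heat map of the log2 signal (color) of 84 P450 genes (rows, ordered by family, white lines between families) on 14 arrays (columns, white lines between genotypes). cyp2ad2 and cyp1a were bright on every array, the cyp11, cyp17, cyp19 and cyp21 rows were dim throughout, and cyp24a1 ran from 6.53 to 11.97.

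The steroid hormone families were dim on all arrays. The 8 genes of the cyp11, cyp17, cyp19 and cyp21 families had signals between 0.96 and 3.17, none with a mean above 2.35, among them the side chain cleavage genes cyp11a1.1 and cyp11a1.2, the hydroxylase genes cyp17a1 and cyp21a2 and the aromatase genes cyp19a1a and cyp19a1b. The list of 10 steroidogenic cell markers was equally dim, with a mean of 1.86 to 2.16. The retinoic acid hydroxylase gene cyp26a1 (1.29 to 2.04) and cyp1b1 (1.53 to 2.14) were also near the array medians, while cyp26b1 ran from 2.74 to 6.53. In all, 20 of the 84 genes stayed under 3 on every array.

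Most bile acid and oxysterol genes were in the middle group. Of the cyp46 genes, however, cyp46a1.4 was bright (mean 8.16), and cyp46a1.1 and cyp46a1.5 were dim (means 1.36 and 1.42). The sterol 27-hydroxylase genes cyp27a1.1 (4.21 to 8.02) and cyp27a1.2 (4.92 to 6.94), cyp27a2 (mean 7.45) and cyp27a3 (mean 7.53) were measured clearly above the array median, and cyp27a1.4 was not (mean 1.79). Of the classic cholesterol 7-alpha-hydroxylase pair, cyp7a1b ran from 4.94 to 7.63 and cyp7a1 from 1.60 to 6.96. The 12-alpha-hydroxylase genes were cyp8b1.3 (4.02 to 5.49) and the dim cyp8b1.2 (1.86 to 2.71).

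P450 genes varied more between arrays than most genes. The median SD over the 14 arrays was 0.565 for the 84 genes and 0.388 for all genes, and among genes with a mean above 3 it was 0.681 (50 P450 genes) and 0.498 (10822 genes). A span over 3 log2 units between the lowest and the highest array was seen for 20 of the 84 genes (23.8%, against 6.5% of all genes). The 12 largest SDs belonged to cyp3a65 (1.82), cyp2k21 (1.72), cyp7a1 (1.69), cyp24a1 (1.67), cyp2aa4 (1.51), cyp7b1 (1.49), cyp39a1 (1.47), cyp2x8 (1.41), cyp2x9 (1.29), cyp2r1 (1.25), cyp46a1.2 (1.17) and cyp2p7 (1.16). Compared with that median of 0.681, bright genes were often steadier, cyp4t8 having an SD of 0.27, cyp2y3 of 0.37 and cyp1a of 0.57, but cyp24a1 was not. Dim genes could be steadier still, the lowest SD of the 84 being that of cyp27c1 (0.179).

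P450 signals also differed between arrays of the same group. A pair of arrays was present for WT_NOR and, in HBx,Src(p53-), for both NOR and DIO. Within these pairs 17, 29 and 15 of the 84 P450 genes differed over 2-fold (20.2%, 34.5% and 17.9%), against 16.3%, 14.2% and 7.5% of all genes. The largest differences were found for cyp2k6, at 5.80 and 10.08 on the HBx,Src(p53-) normal diet arrays (19.5-fold), and for cyp3a65, the main zebrafish CYP3A gene, at 8.75 and 4.78 on the WT normal diet arrays (15.7-fold). The vitamin D 25-hydroxylase gene cyp2r1 was at 6.30 and 2.34 (15.5-fold), cyp7a1 at 5.26 and 1.86 (10.6-fold) and cyp7b1 at 5.44 and 8.70 (9.57-fold) on the HBx,Src(p53-) normal diet arrays. On that pair cyp1a also differed, by 4.02-fold (11.21 and 9.20), while within the other pairs it differed by 1.07-fold and 1.08-fold. For cyp24a1, which encodes the enzyme that inactivates vitamin D, the difference was 4.63-fold, 4.78-fold and 4.61-fold in the 3 pairs. Differences between genotypes or diets are read against this spread below.

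**Figure D2:**
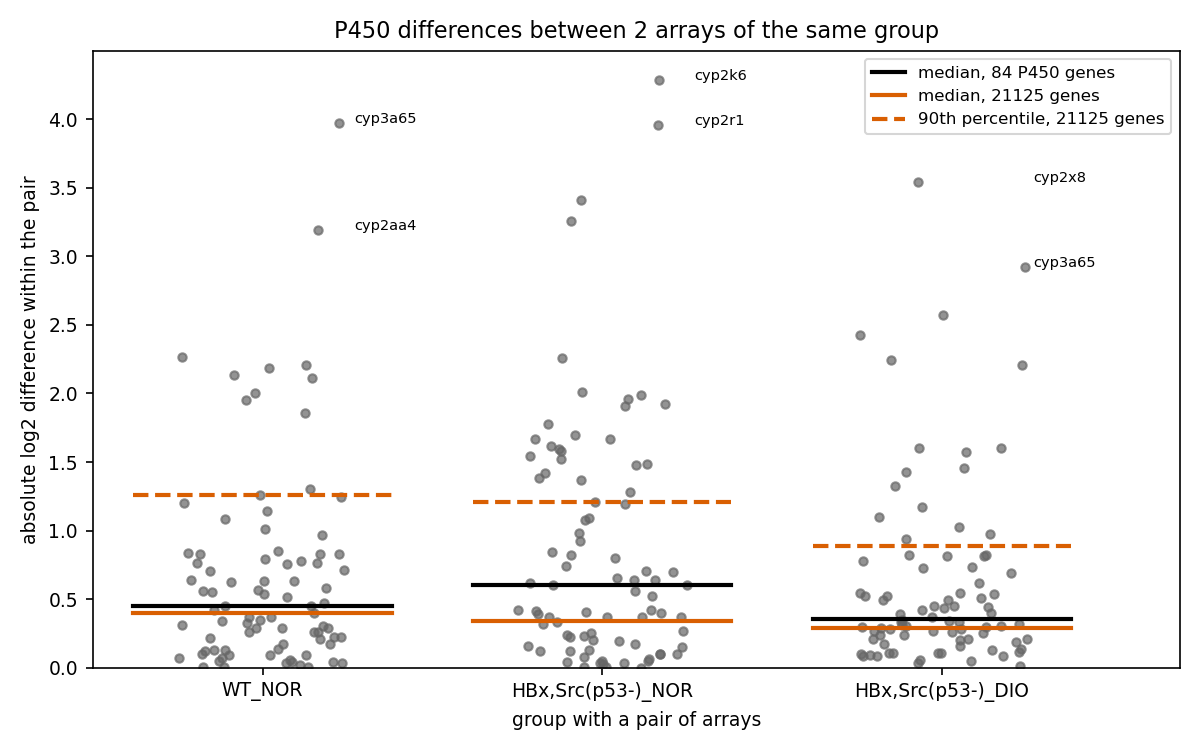
Absolute log2 difference (y axis) between the 2 arrays of each of the 3 groups that held a pair (x axis), 1 point per P450 gene, spread sideways only for visibility. Solid lines are medians of the 84 P450 genes (black) and of all 21125 genes (orange), and the dashed line is the 90th percentile of all genes; cyp2k6 and cyp2r1 in HBx,Src(p53-)_NOR and cyp3a65 in WT_NOR stood highest.

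The first question was whether the mutant lines differed from WT in P450 expression. No P450 gene passed an adjusted p of 0.05 (Benjamini-Hochberg, limma with genotype and diet as terms) and was thus called, whether in HBx(p53-) against WT (0.0663% of all genes called), in Src(p53-) against WT (0.0331%), in HBx,Src(p53-) against WT (0.497%) or in the mean of the 3 lines against WT (0.137%). Nor did any of the 84 genes lie on all 10 mutant arrays above all 4 WT arrays, as 0.293% of all genes did, or below them, as 0.123% did. A looser criterion, close to that in the methods of the study, was an unadjusted p under 0.05 with at least a 2-fold difference. Genes past it are described here with their values and are not called.

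By that criterion the mean of the mutant lines had 7 P450 genes higher and 2 lower than WT, against 1.06% and 0.369% of all genes, which for 84 genes is 8.33% and 2.38%. With the genes kept to those with a mean above 3, which leaves out dim genes, 8 of 50 P450 genes (16.0%) and 2.48% of all genes were past it. The median difference over the 84 genes was +0.15, and that over all genes +0.01. Of the 84 genes 55 were higher and 29 lower, and of all genes 52.5% were higher.

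In HBx(p53-) 5 P450 genes were higher and 0 lower by the criterion (1.18% and 0.720% of all genes). In Src(p53-) 5 were higher and 3 lower (1.08% and 0.440%), and in HBx,Src(p53-) 7 were higher and 1 lower (3.72% and 0.663%). The 3 comparisons share the 4 WT arrays, so genes that recur among them are not independent of each other. Recurring genes were cyp39a1 and cyp46a1.2 in all 3 comparisons, cyp7b1 in both Src-carrying lines, and cyp2p8 in both single transgene lines.

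**Figure D3:**
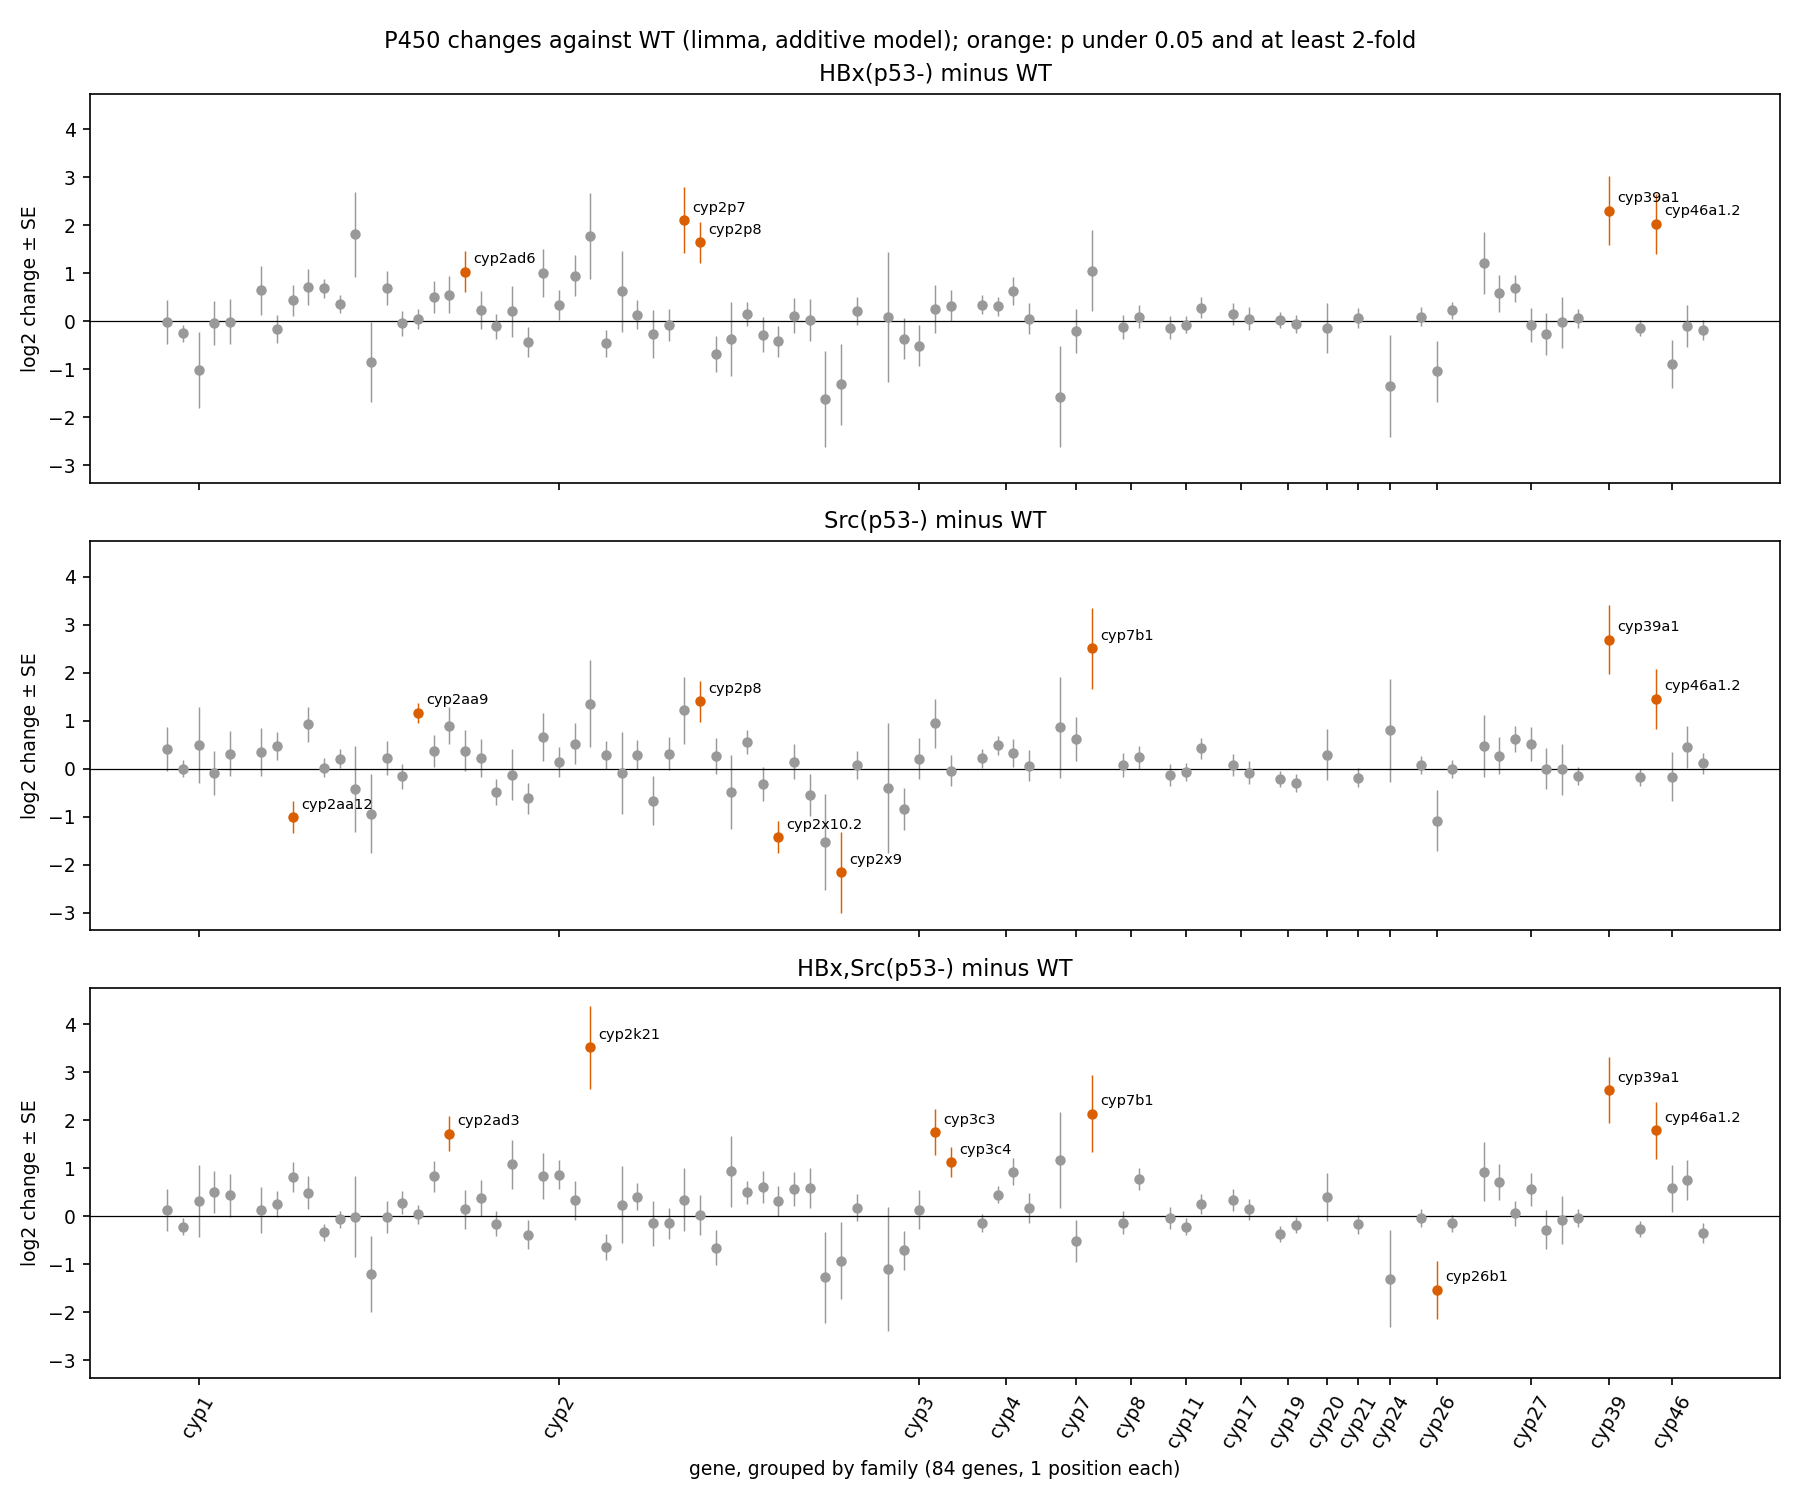
Log2 difference from WT with its standard error (y axis, limma additive model of genotype and diet) for each of the 84 P450 genes (x axis, grouped by family), 1 panel per mutant line. Orange points have an unadjusted p under 0.05 and at least a 2-fold difference; cyp39a1 lay at +2.31, +2.69 and +2.63 in the 3 panels.

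cyp39a1, in mammals a 7-alpha-hydroxylase of 24-hydroxycholesterol, was at 5.39, 3.13, 5.86 and 3.98 in WT (normal diet 1 and 2, overfed, high fat). It was at 7.49, 5.26 and 7.86 in HBx(p53-) and at 6.95, 7.35 and 7.47 in Src(p53-) (normal, overfed, high fat), and at 7.45 and 7.87 (normal) and 6.46 and 6.57 (overfed) in HBx,Src(p53-). Under normal diet and under high fat feeding every mutant array was above every WT array of that diet, while among overfed fish the HBx(p53-) array was below the WT array. The difference of the mutant lines from WT was +2.54 ± 0.56 (SE, adjusted p = 0.174), the largest moderated t among the 84 genes in this comparison. With the mean of the exocrine pancreas markers as a covariate it was +1.12 (adjusted p = 0.935). In that mean HBx(p53-) and HBx,Src(p53-) did not overlap with WT, so this value cannot separate the markers from genotype.

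The cholesterol 24-hydroxylase paralog cyp46a1.2 was at 4.22, 6.36, 3.64 and 4.79 in WT, in the same order of diets. In HBx(p53-) it was at 6.54, 6.55 and 6.91, in Src(p53-) at 6.78, 6.66 and 4.82, and in HBx,Src(p53-) at 6.09, 7.75, 5.81 and 6.62. The HBx(p53-) arrays were all above WT, and the other 2 lines overlapped with WT through the second WT normal diet array. The difference of the mutant lines was +1.76 ± 0.49 (adjusted p = 0.325), and it was +1.78 with the pancreas covariate. Of the 5 cyp46 genes it was the only 1 past the looser criterion in this comparison, and its neighbour cyp46a1.4 stood at +0.37 ± 0.34 (adjusted p = 0.884).

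The oxysterol 7-alpha-hydroxylase gene cyp7b1 was at 4.91, 4.64, 3.20 and 5.79 in WT. It was at 6.11, 5.94 and 4.72 in HBx(p53-), at 7.69, 7.99 and 5.44 in Src(p53-) and at 5.44, 8.70, 6.09 and 7.27 in HBx,Src(p53-). Each line overlapped with WT, in Src(p53-) and HBx,Src(p53-) through 1 array each. The difference from WT was +2.51 ± 0.85 in the Src line (adjusted p = 0.773) and +2.14 ± 0.81 with both transgenes (adjusted p = 0.305).

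The rest of the bile acid genes were nearer to WT. The difference of the mutant lines was +0.16 ± 0.82 for cyp7a1, -0.03 ± 0.36 for cyp7a1b, +0.37 ± 0.19 for cyp8b1.3 and +0.87 ± 0.51 for cyp27a1.1, with adjusted p values of 0.737 or more. For cyp7a1 the standard error was close to the size of a 2-fold difference, which was thus not detectable with these arrays.

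**Figure D4:**
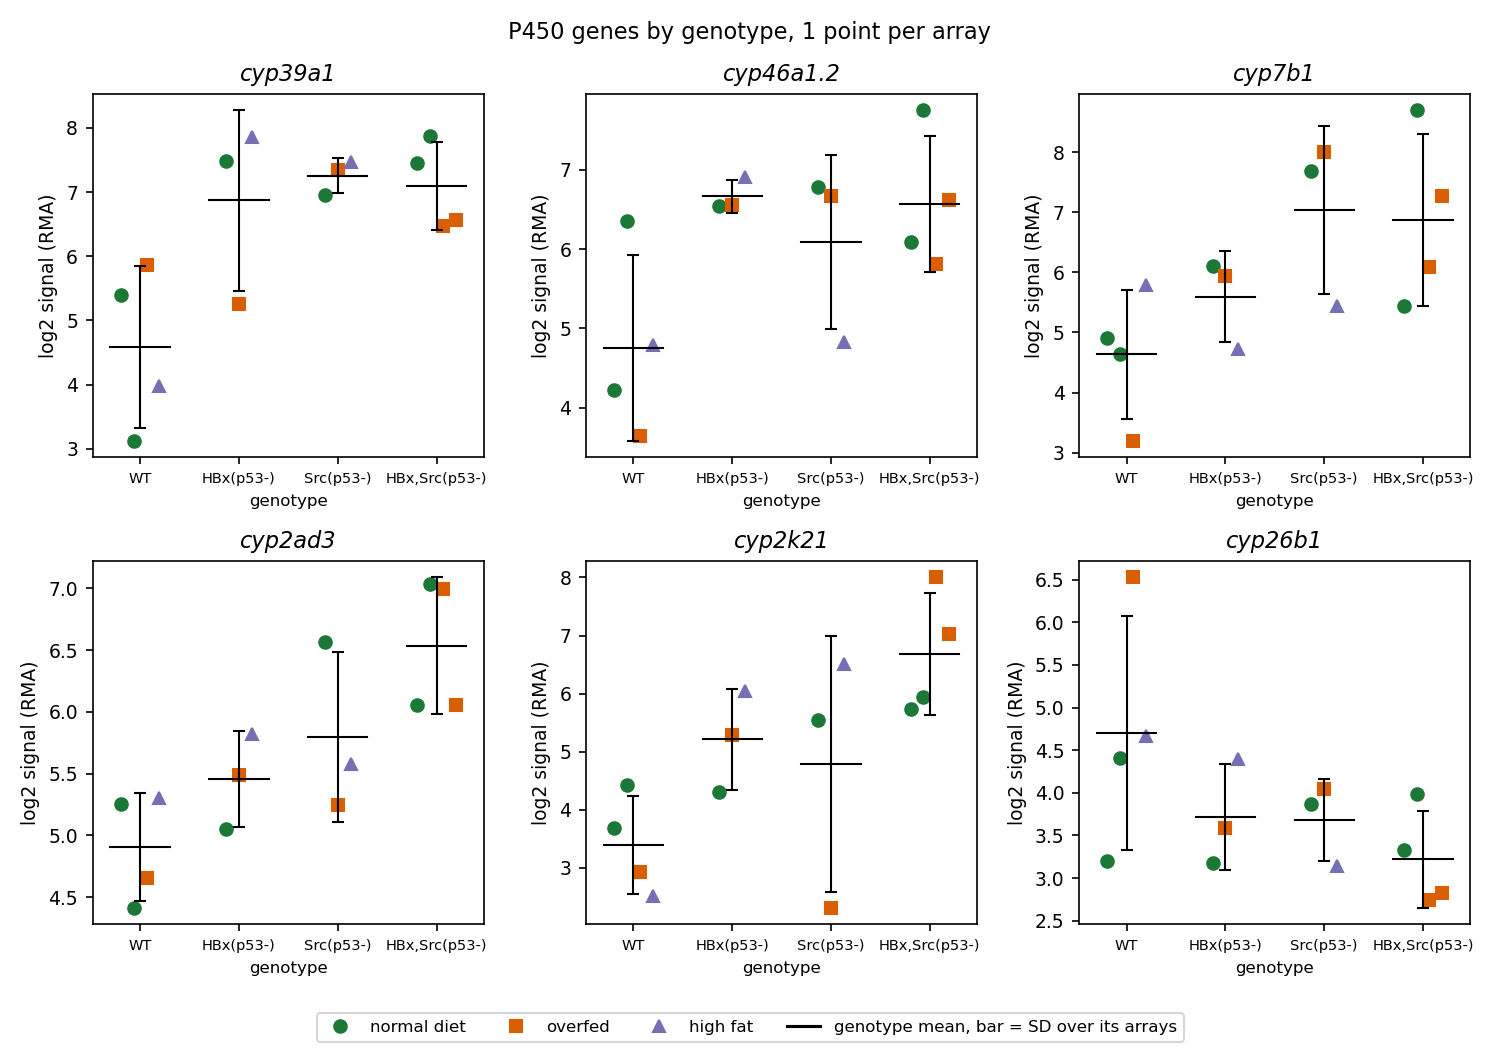
Log2 signal (y axis) of 6 P450 genes in each genotype (x axis), 1 point per array with the diet given by its shape; the line is the genotype mean and the bar the SD over its arrays. WT was lowest in mean for cyp39a1, cyp46a1.2, cyp7b1, cyp2ad3 and cyp2k21 and highest for cyp26b1, and for each gene at least 1 mutant array lay within the range of WT.

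In the cyp2 family the lowest adjusted p was that of cyp2ad3. Its signal was 5.25, 4.41, 4.66 and 5.30 in WT and 6.05, 7.04, 6.99 and 6.06 in HBx,Src(p53-), so these groups did not overlap. It was at 5.05, 5.49 and 5.82 in HBx(p53-) and at 6.57, 5.24 and 5.58 in Src(p53-), both overlapping with WT. The difference of HBx,Src(p53-) from WT was +1.72 ± 0.37 (adjusted p = 0.0746). It was the only P450 gene called under any alternative, at +1.74 ± 0.30 (adjusted p = 0.0489) without the Src(p53-) normal diet array, an array of neither group.

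cyp2k21 was at 3.68, 4.43, 2.93 and 2.52 in WT and at 5.74, 5.94, 8.00 and 7.03 in HBx,Src(p53-), again without overlap. The HBx(p53-) values were 4.31, 5.30 and 6.04, and the Src(p53-) values 5.55, 2.31 and 6.51, the overfed array of Src(p53-) being the lowest of all 14. The difference of HBx,Src(p53-) was +3.51 ± 0.86 (adjusted p = 0.104), the largest difference of any P450 gene from WT. The other members of the cyp2k run of neighbouring genes differed in level. cyp2k16, cyp2k17 and cyp2k20 were dim (means 1.92, 1.77 and 2.08), cyp2k18 was intermediate (4.40 to 6.83), cyp2k19 ran from 7.20 to 8.87, and cyp2k6 ran from 5.80 to 10.08, both ends being normal diet arrays of HBx,Src(p53-).

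Other cyp2 genes had their largest moderated t in the single transgene lines. cyp2aa9 was at 2.55, 3.11 and 3.32 in Src(p53-), above all other arrays (1.55 to 2.00), a difference from WT of +1.17 ± 0.21 (adjusted p = 0.133). Its signal is near the array medians. cyp2p8 was at 3.53, 3.47 and 2.35 in HBx(p53-) and at 2.29, 4.33 and 2.01 in Src(p53-), against 1.06 to 1.70 in WT. Its mean over all arrays, 2.20, is also near the array medians. The difference in HBx(p53-) was +1.64 ± 0.43 (adjusted p = 0.405) and, with the pancreas covariate, +0.79. cyp2x10.2 was at 6.51, 5.63 and 7.23 in Src(p53-) and at 7.52, 7.61, 7.23 and 8.92 in WT, a difference of -1.42 ± 0.33 (adjusted p = 0.424). It had 4 probe sets, and the others correlated with the one used at r = 0.632 to 0.864.

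Other genes past the looser criterion were cyp2p7 (+2.11 ± 0.70) and cyp2ad6 (+1.04 ± 0.42) in HBx(p53-), cyp2x9 (-2.16 ± 0.84) and cyp2aa12 (-1.01 ± 0.33) in Src(p53-), and cyp3c3 (+1.76 ± 0.48) and cyp3c4 (+1.13 ± 0.31) in HBx,Src(p53-). In that line cyp3c4 was above WT only under normal diet, at 4.10 and 3.73. Its overfed values, 1.99 and 1.91, lay within the WT range of 1.75 to 2.35. cyp3c3 was at 5.17 and 3.51 under normal diet and at 3.04 and 2.50 when overfed, against at most 2.67 in WT. A second probe set of cyp2aa12 correlated with the first at r = 0.575. With the mean of all probe sets 6 P450 genes were past the criterion in Src(p53-) (7.14%, beside 1.27% of all genes), against 8. Below the 2-fold limit, cyp2aa3 stood at +0.68 in HBx(p53-), and cyp2k22 at -0.64 and cyp19a1a at -0.38 in HBx,Src(p53-). cyp2p7, cyp2p8, cyp2ad3 and cyp2ad6 belong to 1 run of 11 neighbouring cyp2 genes in the RefSeq gene order. Of that run, cyp2ad2, the brightest P450 gene, ran from 10.17 to 11.95 with an SD of 0.50.

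Among genes lower in the mutant lines was cyp26b1, which encodes a retinoic acid hydroxylase. It was at 3.20, 4.40, 6.53 and 4.67 in WT and at 3.33, 3.99, 2.74 and 2.83 in HBx,Src(p53-). The highest value was the overfed WT array, and the first WT normal diet array lay within the mutant range. The difference of HBx,Src(p53-) was -1.53 ± 0.60 (adjusted p = 0.333), and -0.68 without the overfed WT array. cyp24a1, for all its spread, stood at -0.61 ± 0.83 in the mutant lines (adjusted p = 0.935), and the foreign compound genes cyp1a and cyp3a65 at +0.17 ± 0.36 and -0.47 ± 1.05.

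Markers of other cell types also differed between the lines. The mean of 13 exocrine pancreas markers ran from 4.39 to 5.60 over the WT arrays and from 6.50 to 8.68 over the HBx(p53-) arrays. Over the Src(p53-) arrays it ran from 4.69 to 6.30, and over those of the double line from 6.29 to 7.60. With this mean as a covariate, 4 P450 genes (4.76%, against 2.95% of all genes) were past the looser criterion in the mutant lines. In HBx(p53-) it was 1 (1.19%, against 3.91%). In Src(p53-) it was 8 (9.52%, against 1.57%), and in HBx,Src(p53-) also 8 (9.52%, against 6.74%). Neither HBx(p53-) nor HBx,Src(p53-) overlapped with WT in this mean, so with the covariate these markers and genotype cannot be told apart. The mean of 12 leukocyte markers was at most 3.92 on the WT arrays and at least 4.26 on those of HBx,Src(p53-), and that of 8 intestine markers at most 4.61 and at least 4.65. By the looser criterion 13 of 13 pancreas markers were higher in HBx(p53-) than in WT (1.18% of all genes), and 0 were called. In HBx,Src(p53-) 12 of 13 were higher by it and 2 were called, beside 3.72% and 0.497% of all genes. Of 12 leukocyte markers 3 were higher there and 1 was called, and of 8 intestine markers 1 and 0. Of 13 ovary and germ cell markers 4 were higher in HBx,Src(p53-) than in WT by the looser criterion, and 1 of them, the egg coat gene zp2.1, was called (+3.63 ± 0.58, adjusted p = 0.0256). zp2.1 was at 6.45, 3.35, 5.52 and 5.25 in HBx,Src(p53-) and at most at 2.54 on the WT arrays. The mean of these markers ran from 2.00 to 3.12 in HBx,Src(p53-) and from 1.68 to 2.20 in WT, and in the single transgene lines from 1.68 to 1.82. The part of the leukocyte, intestine and ovary markers in the differences was not tested.

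The second question was the effect of obesity feeding within each genotype, with overfed and high fat arrays pooled as the study did. No P450 gene was called in WT (0% of all genes), HBx(p53-) (0%), Src(p53-) (0%) or HBx,Src(p53-) (0.0142%). By the looser criterion WT had 6 P450 genes higher and 0 lower on the obesity diets (1.19% and 0.535% of all genes). HBx(p53-) had 1 higher and 5 lower (0.918% and 1.41%), Src(p53-) 1 higher and 1 lower (1.51% and 1.87%) and HBx,Src(p53-) 0 higher and 3 lower (2.49% and 3.92%). The share of P450 genes was thus 7.14% on the higher side in WT and 5.95% on the lower side in HBx(p53-), and elsewhere it was near or below that of all genes. At an unadjusted p under 0.05 without the fold limit, both directions together, it was 7.14% in WT, against 4.34% of all genes. In HBx(p53-) it was likewise 7.14%, against 3.74%.

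In WT the genes higher on the obesity diets were cyp2aa6, cyp3c2, cyp2x7, cyp26b1, cyp27a1.1 and cyp3c1. cyp2aa6 was at 3.04 and 2.21 under normal diet, 5.91 when overfed and 4.44 under high fat, a difference of +2.55 ± 0.66 (adjusted p = 0.999). In HBx(p53-) and Src(p53-) both obesity diet arrays were below the normal diet array. In HBx,Src(p53-) the overfed arrays (2.07 and 2.61) overlapped with the normal diet arrays (4.20 and 2.24). All 10 mutant arrays lay between 2.07 and 4.20. cyp2x7 was at 5.80 and 6.36 against 6.86 and 7.90 (+1.31 ± 0.44), and cyp27a1.1 at 6.21 and 4.21 against 6.85 and 7.34 (+1.88 ± 0.79). For cyp3c2 (+1.24 ± 0.39) the mean of both its probe sets gave +0.60. A second probe set of cyp27a1.1, with a mean of 3.72, correlated with the first at r = 0.881. With the mean of all probe sets 4 P450 genes were past the criterion in WT (4.76%, beside 1.44% of all genes), against 6.

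In HBx(p53-) the normal diet was represented by 1 array, so its spread was taken from the other groups. On that array cyp2aa1 was at 5.46, against 2.91 overfed and 3.23 under high fat, and all other lines lay between 2.92 and 3.93. The difference was -2.39 ± 0.30 (adjusted p = 0.237). A second probe set of cyp2aa1 correlated with the first at only r = 0.258 over the 14 arrays, and the mean of both gave -1.88. cyp24a1 was at 11.13 on the normal diet array and at 6.53 and 8.02 on the others (-3.85 ± 1.32, adjusted p = 1.00), cyp2x8 at 5.99 against 2.59 and 2.80 (-3.30 ± 1.24) and its neighbour cyp2x9 at 7.07 against 5.10 and 3.85 (-2.59 ± 1.01). Within the pairs of arrays of the same group cyp2x8 differed by 0.83 to 3.54 and cyp2x9 by 0.37 to 2.43. cyp3c2, which was higher on the obesity diets in WT, was lower on them in HBx(p53-), at 3.97 against 3.04 and 2.74 (-1.08 ± 0.48). Its second probe set correlated with the first at r = 0.324. cyp2aa7, dim on all arrays, was the only gene past the criterion upward, at 1.64 against 2.84 and 2.87 (+1.21 ± 0.44).

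**Figure D5:**
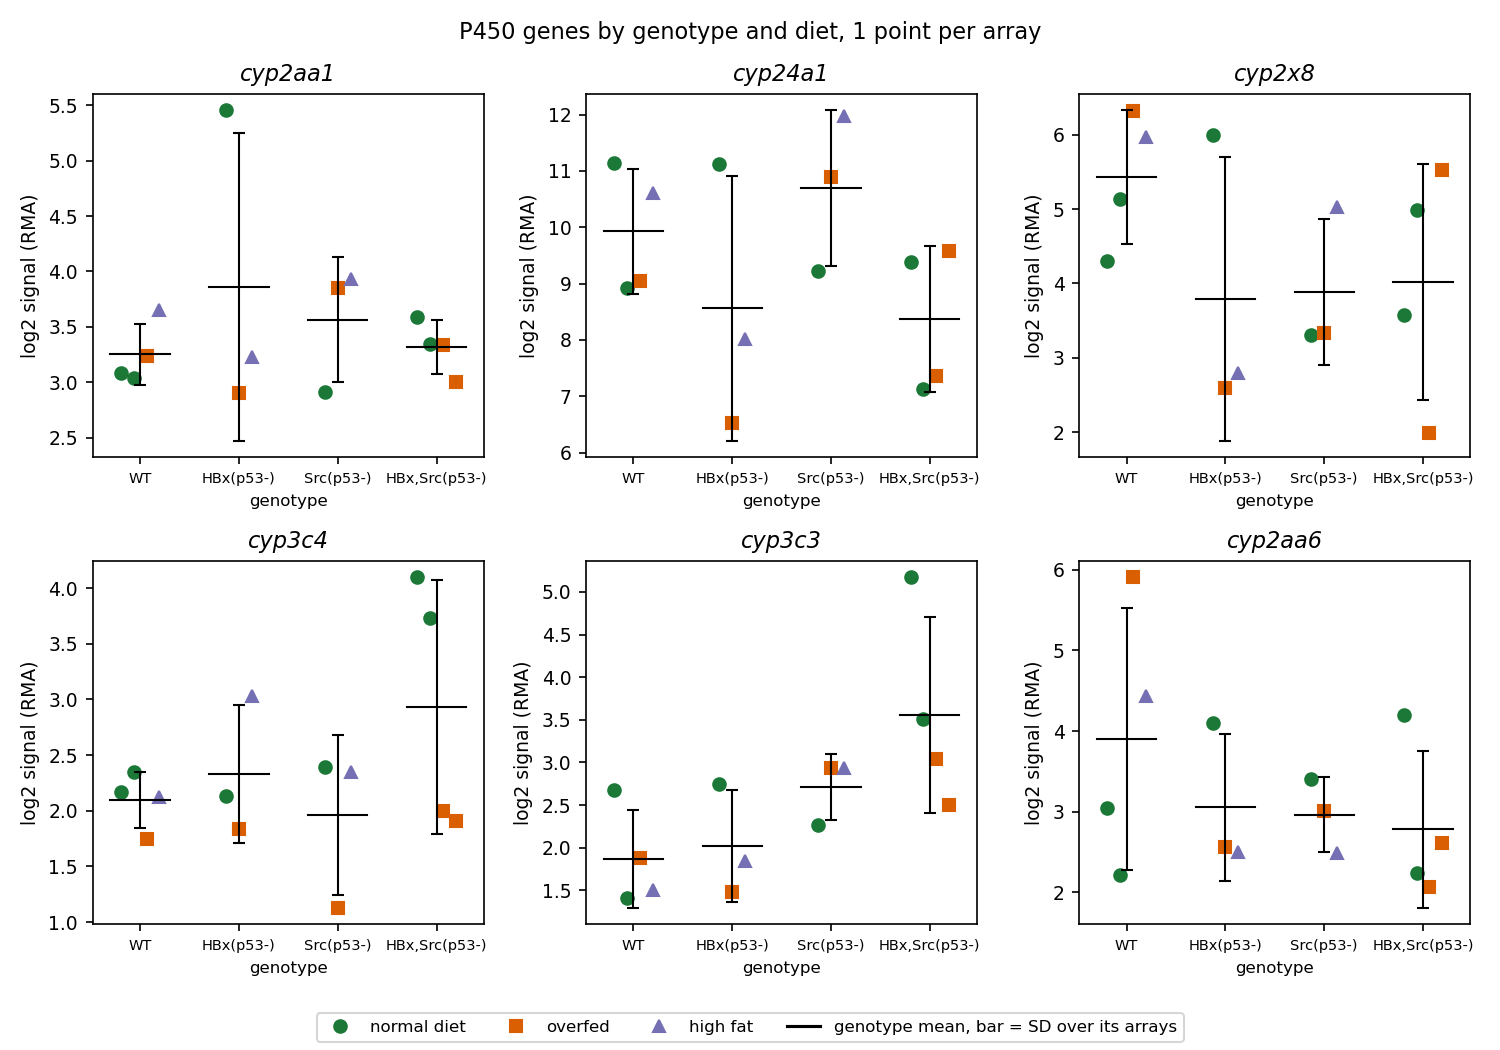
Log2 signal (y axis) of 6 P450 genes by genotype (x axis), 1 point per array with the diet given by shape and color; the line is the genotype mean and the bar the SD over its arrays. The HBx(p53-) normal diet array stood alone for cyp2aa1 at 5.46, the HBx,Src(p53-) normal diet arrays were highest for cyp3c4, and the overfed WT array was highest for cyp2aa6.

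In Src(p53-) cyp2ae1 was at 4.15 under normal diet and at 2.55 and 2.75 on the obesity diets (-1.50 ± 0.48, adjusted p = 0.894), and cyp2aa12 at 4.56 against 5.45 and 5.84 (+1.08 ± 0.45). In this line cyp2aa1 was lower under normal diet (2.92) than on the obesity diets (3.85 and 3.93), a difference of +0.97, which was +0.22 over both probe sets. In HBx,Src(p53-), where the obesity diet was overfeeding alone, cyp3c4 was at 4.10 and 3.73 under normal diet and at 1.99 and 1.91 when overfed, without overlap (-1.96 ± 0.46, adjusted p = 0.218). Its neighbour cyp3c3 was at 5.17 and 3.51 against 3.04 and 2.50 (-1.57 ± 0.55), and cyp7a1b at 7.63 and 6.25 against 6.26 and 4.94 (-1.34 ± 0.57), where the groups overlapped. cyp2n13 stood at 8.07 and 7.32 against 8.73 and 8.39 (+0.86). On the obesity diets 13 of 13 exocrine pancreas markers were higher in Src(p53-) (median +1.48, 2 past the looser criterion) and 12 of 13 in HBx,Src(p53-) (median +0.92, 1 past it).

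The diet differences themselves were compared between lines, those of the Src-carrying lines minus those of WT and HBx(p53-). No P450 gene was called (0% of all genes), and 2 were higher and 4 lower by the looser criterion (2.26% and 3.11%). The higher ones were cyp2aa1 (+1.34 ± 0.28, adjusted p = 0.458) and cyp24a1 (+3.23 ± 1.20, adjusted p = 0.562), and the lower ones cyp2x7 (-1.35 ± 0.49), cyp2ae1 (-1.21 ± 0.44), cyp26b1 (-1.88 ± 0.71) and cyp3c4 (-1.30 ± 0.52). For cyp24a1 the obesity diets were below normal diet in HBx(p53-) and above it in Src(p53-), where it was at 9.23 under normal diet, 10.90 overfed and 11.97 under high fat. In WT it was at 11.14 and 8.93 under normal diet and at 9.05 and 10.60 on the obesity diets, and in HBx,Src(p53-) at 9.39 and 7.13 against 7.37 and 9.57, so in both the groups overlapped. In HBx(p53-) and Src(p53-) the normal diet was a single array, and for this gene paired arrays of the same group differed by 2.21 to 2.26.

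The feeding regimes were also compared one by one over all genotypes. No P450 gene was called for overfeeding (0% of all genes) or high fat feeding (0%). For overfeeding 0 genes were higher and 1 lower by the looser criterion (0.346% and 0.516%). This was cyp3c4, at 1.75, 1.83, 1.13, 1.99 and 1.91 on the overfed arrays and at 2.17, 2.35, 2.13, 2.39, 4.10 and 3.73 under normal diet, where the groups did not overlap (-1.17 ± 0.26, adjusted p = 0.739). Its signal was near the array medians except in the HBx,Src(p53-) normal diet fish. cyp4v2a, of a fatty acid hydroxylase family, was lower by less than 2-fold (-0.52 ± 0.23).

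For high fat feeding 3 P450 genes were higher and 0 lower (0.521% and 0.241% of all genes). cyp2j20 was at 3.12, 2.97 and 2.50 on the high fat arrays and at 1.45 to 2.43 on the other 11 (+1.02 ± 0.26, adjusted p = 1.00), so the groups did not overlap. Its mean over all arrays, 2.05, is near the array medians. cyp2x10.2 was at 8.92, 7.99 and 7.23 (+1.00 ± 0.32) and cyp1d1, a relative of cyp1a, at 7.57, 6.44 and 6.93 (+1.18 ± 0.45), each within the range of the other arrays on at least 1 array. With the mean of all probe sets 2 P450 genes were past the criterion for high fat feeding (2.38%, beside 0.611% of all genes). Some well-known genes were not past the criterion. cyp1a stood at +0.19 ± 0.37 in overfed and +0.24 ± 0.45 in high fat fish, cyp7a1 at +0.75 ± 0.83 and +1.40 ± 1.01, and cyp3a65 at -0.38 ± 1.08 and -1.93 ± 1.31. The exocrine pancreas markers moved with the diet as well. With high fat feeding 13 of 13 had a positive difference (median +1.08, against 0.00 over all genes), 7 were past the looser criterion and 0 were called, and their mean ran from 5.60 to 8.68 on the high fat arrays and from 4.39 to 7.58 under normal diet. For overfeeding 10 of 13 were higher (median +0.49) and 0 past it. With this mean as a covariate 3 P450 genes (3.57%, against 1.25% of all genes) were past the criterion for high fat feeding. In that fit cyp2j20 was at +1.27 and cyp2x10.2 at +1.13. cyp1d1 was at +0.90, below the 2-fold limit, so it was not among these 3.

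The partners of P450 enzymes were examined as 4 lists, electron donors and haem supply (17 genes measured), xenobiotic and bile acid receptors (23), retinoid and vitamin D pathway genes (17) and bile acid and steroid partner enzymes (10). None of their genes was called in any of the 11 comparisons. The 17 genes of the first list held no P450 reductase gene, so that electron donor was not examined. They did include the haem oxygenase genes hmox1a and hmox2a, which break down haem. In HBx,Src(p53-) against WT the looser criterion was passed by 1 electron donor gene upward, 2 receptors downward, 1 retinoid gene upward and 0 bile acid partners. Of all genes 3.72% were past it upward and 0.663% downward in that comparison. The list medians there were +0.21, -0.11, +0.05 and -0.04, beside +0.03 for all genes.

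Among the receptors, ahr1a, an aryl hydrocarbon receptor gene, was at 4.68, 3.03, 4.02 and 4.87 in WT and at 2.13 to 3.72 in the mutant lines (-1.45 ± 0.36, adjusted p = 0.252). ahr2, the receptor that mediates most dioxin responses in zebrafish, was at 6.22 to 7.63 in WT and 6.27 to 7.83 in the mutants. nr1i2, the pregnane X receptor that induces CYP3A genes in mammals, was at 9.14, 9.50 and 8.66 in HBx(p53-) and 7.38 to 8.52 in WT, without overlap (+1.20 ± 0.36, adjusted p = 0.495). The liver X receptor gene nr1h3, an oxysterol sensor, was -1.26 ± 0.39 in HBx,Src(p53-) (adjusted p = 0.201), at 6.23, 6.70, 6.17 and 7.11 against 6.64, 8.35, 8.23 and 7.53 in WT.

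Of the electron donor and haem genes, cyb5r3, a cytochrome b5 reductase, was at 4.41, 5.64, 4.70 and 5.18 in HBx,Src(p53-) and at 3.95, 3.65, 3.38 and 4.72 in WT (+1.17 ± 0.31, adjusted p = 0.125). alas1, the rate-limiting enzyme of haem synthesis in liver, was at 7.90, 8.21, 9.07, 7.30 and 7.78 on the overfed arrays and at 8.98 to 9.77 under normal diet (-1.24 ± 0.39, adjusted p = 0.757). All overfed arrays but that of Src(p53-) were below every normal diet array. On the WT high fat array alas1 was at 11.53, the highest of all. Among retinoid genes raraa, a retinoic acid receptor, was at 4.08 and 5.10 in WT under normal diet and at 6.50 and 6.19 on the obesity diets (+1.75 ± 0.39, adjusted p = 0.999), and rdh1, a retinol dehydrogenase gene, was +1.01 ± 0.27 in HBx,Src(p53-) (adjusted p = 0.140).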

How the data were processed

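Liver RNA of 14 samples was hybridised to ZebGene ST arrays. The deposited values are log2 signals per probe set, which per the labels the authors made with RMA in the oligo package. Tool versions and genome build are not given in the sources used here, so no coordinates are reported. RMA equalises the distributions of the arrays. No dates or plates were available to test a batch. Fish and arrays were equal in number in the study, and an array was taken as 1 fish. The residual spread behind the p-values holds differences between fish and technical error, but not these alone. Where both obesity diets were pooled into 1 mean, any difference of overfeeding from high fat feeding counted as residual too. In the fit of genotype plus diet, so did any diet effect that differed between genotypes. The number of arrays limits the precision.

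Of 75212 probe sets, 30358 had 1 gene symbol, 1015 several and 43839 none in the platform annotation. The highest-mean probe set stood for each of 21125 genes. RefSeq (assembly GRCz12tu) matched 82 of the 84 P450 genes by Entrez identifier and was used for names and gene order. A further 4 probe sets naming a P450 gene with another symbol were left out.

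All 14 arrays entered limma 3.58.1 (R 4.3.3; lmFit, contrasts.fit, eBayes): 8 cell means of genotype by normal or obesity diet (6 residual degrees of freedom) for diet within a genotype, and genotype plus diet (8 degrees of freedom) for genotypes and feeding regimes. Lone arrays were assumed to vary like the others. P values were adjusted by Benjamini-Hochberg over all genes, and errors are standard errors unless named SD. Scripts were tested on simulated data. The members and lists were chosen with earlier results of these data known. Named were up to 3 genes per direction with the largest moderated t at p under 0.05 in each comparison, the 12 highest means and largest SDs, genes of settled role and up to 3 partner genes per list. The other genes past the p and fold criterion, steady or neighbouring genes and ahr2 were added after their values were seen. Alternatives were the mean of all probe sets, cyclic loess, a mean above 3, trend and robust moderation, the replicate number as a block, a pancreas marker covariate, 11 cell means and leaving out each array.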

Additional observations from a re-analysis of the deposited data

Results flagged for a closer look

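The 28 P450 genes named for a comparison were searched for an array far from the others of its genotype or diet, in groups of 4 to 6 arrays, by the gap to the nearest array over the range of the group (Dixon's 95% critical value). Of 112 such groups 7 held one. For independent groups of genes chosen without regard to their values, about 1 in 20, or 5.6, would be flagged by chance. These genes were chosen by their moderated t on the same arrays, and the groups of a gene share arrays. The number expected by chance is therefore not known here. Groups by genotype mix diets and groups by diet mix genotypes, so an array can stand apart because of its other label, which was not tested.

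Among the normal diet arrays cyp2aa1 was at 5.46 in HBx(p53-), against 2.92 to 3.59 on the other 5. Among the overfed arrays cyp2aa6 was at 5.91 in WT, the others lying at 2.07 to 3.00, and cyp46a1.2 was at 3.64 in WT, the others lying at 5.81 to 6.66. The overfed Src(p53-) array accounted for 3 of the 7: cyp2aa9 at 3.11 (others 1.81 to 1.94), cyp2x10.2 at 5.63 (others 7.20 to 7.80) and cyp3c4 at 1.13 (others 1.75 to 1.99). In HBx,Src(p53-) cyp2aa9 was at 1.61 on the second normal diet array, the others lying at 1.90 to 1.92.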

How the results depend on the processing

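No P450 gene was called under any alternative in any of the 11 comparisons, with 1 exception: without the Src(p53-) normal diet array 1 gene, cyp2ad3, was called in HBx,Src(p53-) against WT, where leaving out single arrays gave 0 to 1 called genes. All 44 differences of named genes kept their direction in all 360 values computed under the alternatives. These genes were chosen by their moderated t in the same data, so the kept direction is no independent support. Diet differences in HBx(p53-) and Src(p53-), and those compared between lines, could not be fitted without the single normal diet array of either line. The replicate numbers did not pair the arrays (correlations of deviations -0.23 to 0.13 between groups), and with the replicate block 0 P450 genes were called in each comparison. The block moved no count of genes past the looser criterion by over 1.5 times. It gave 8 in the mutant lines (9.52%, beside 1.45% of all genes) and 9 in HBx,Src(p53-) (10.7%, beside 4.47%). Counts past that criterion are less stable to other choices, 10 of 71 values under the alternatives that kept all arrays and 19 of 150 without 1 array moving by over 1.5 times. For the fits without 1 array the share over all genes was not counted, so those counts cannot be set against it. Leaving out 1 array gave 5 in the mutant lines (without WT normal 2, against 9), 3 (without HBx(p53-) high fat) to 9 (without HBx(p53-) normal or WT high fat) in HBx(p53-) against WT, 2 for diet in HBx(p53-) (without its high fat array, and 3 without its overfed array, against 6), and 9 for diet in HBx,Src(p53-) (without its normal diet array 1, 7 without array 2 and 5 without overfed array 1, against 3). For diet in Src(p53-) it gave 1 without either WT normal diet array, 4 without its overfed array and 5 without its high fat array (against 2), for high fat feeding 1 without either WT normal diet array (against 3), and for overfeeding 2 without the Src(p53-) normal or overfed array or either HBx,Src(p53-) normal diet array (against 1). The pancreas marker covariate gave 1 for HBx(p53-) against WT (against 5), which was 1.19% beside 3.91% of all genes. It gave 4 in the mutant lines (against 9), 4.76% beside 2.95%, and 5 for diet in Src(p53-) (against 2), 5.95% beside 4.58%. For overfeeding it gave 2 (against 1), 2.38% beside 0.705%. Genes with a mean above 3 gave 1 for diet in HBx,Src(p53-), 2% beside 10.7%, and 0 for overfeeding, beside 1.6%. For diet in Src(p53-) the mean of all probe sets, cyclic loess, a mean above 3 and trend and robust moderation each gave 1. The shares of all genes there were 2.93%, 3.52%, 4.03% and 3.31%. Over all genes the calls in HBx,Src(p53-) against WT were 105, 68 with cyclic loess and 0 with the pancreas covariate, which also left 0 of 14 in HBx(p53-) and 0 of 29 in the mutant lines; for diet in HBx,Src(p53-) they were 3, and 0 to 6 (with the replicate block) under the alternatives that kept all 14 arrays. Groups of 1 array allow no spread of their own, so differences resting on them are limited by the shared estimate.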
